A study of Mus musculus with 4 samples.

Results

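Chemokines, acute phase proteins, complement components and their regulators were followed as a group of 35 genes in mouse primary osteoblasts, the bone-forming cells, kept in culture under 4 treatments. The genes were taken by name, as every non-control probe of the array whose gene name in the scanner files was on the list. This gave 44 of the 55681 probes, with at least 1 probe for each of the 35 genes. Cultures in 10% serum received no added protein, LOXL2 at 4 µg/ml, BMP2 at 200 ng/ml, or both proteins, for 72 h. BMP2, a bone morphogenetic protein, promotes the differentiation of skeletal cells. LOXL2 belongs to the lysyl oxidases, secreted enzymes that cross-link collagen. The cell type is entered in the labels as pre-osteoblasts for the arrays without BMP2 and as osteoblasts for those with it. Strain, age and the number of animals are not given in the sources used here, nor whether the cultures came from separate preparations. Each treatment was measured on 1 single-colour array, so a p-value or standard error given here measures no spread between replicates. Both rest on how far the effect of a protein differed without and with the other protein, moderated over all genes.

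Chemokines are small secreted proteins that guide leukocytes through receptors on their surface, and they are classed as CC, CXC or CX3C by the spacing of their first cysteines. Many are induced with the acute phase proteins and complement factors by interleukin-1, tumour necrosis factor and interleukin-6, largely through the transcription factor NF-kB. In bone, cells of the osteoblast lineage use some of them to hold blood stem cells in the marrow and to draw in osteoclast precursors. IL-33 is an alarmin kept in the nucleus of barrier and stromal cells, and ST2, the product of Il1rl1, is its receptor.

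Levels are given as the log2 signal of a probe minus the 75th percentile of its array, and were compared within a probe, not between probes. The arrays were alike in depth, with 60.4% to 62.2% of spots well above background and a 75th percentile intensity of 710.5 to 742.9. Where a probe had 10 spots, the log2 signals of those well above background had a median standard deviation (SD) of 0.0645 to 0.0673 by array. This error leaves out variation between cultures, and dim spots can vary more. Those of Il1b, not well above background, had an SD of 0.08 to 0.52. Of the osteoblast-defining markers, 9 of 10 passed the filter (well above background on at least 2 arrays), 4 rose with BMP2 and 0 fell in limma (smallest adjusted p over all genes 0.0206, with 10323 genes at an unadjusted p under 0.05). The 4 were osteocalcin, Bglap, by 3.60 on the log2 scale, bone sialoprotein, Ibsp, by 2.53, the transcription factor Sp7 by 2.23 and alkaline phosphatase, Alpl, by 1.87. Over all genes 10.3% rose.

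The effect of BMP2 was fitted over the 4 arrays with LOXL2 as a second additive factor, 2 arrays with the protein against 2 without it, and adjusted over 24041 genes. Of the 35 genes, 28 passed the filter. In limma with Benjamini-Hochberg adjustment, 11 of the 28 fell with BMP2 and 4 rose at an adjusted p under 0.05. Over all genes tested 9.97% fell and 10.3% rose, 20.3% in either direction. The members were chosen with earlier results of these data known, so they are no independent list to set against these shares. One of the 11, Ccl6, was tested only because it was above background on the arrays where it was high, so it had to differ. Without such genes, 10 of 27 members fell and 4 rose, against 9.24% and 10.1% of all 23505 genes left, members included. All 15 calls were lost when no filter on dim probes was applied (smallest adjusted p over all genes 0.09, with 23 members at an unadjusted p under 0.05). The median fitted change of the 28 was -0.47 on the log2 scale, against 0.02 over all genes. Between single arrays, by measured values, 7 members were 2-fold lower with BMP2 than untreated (3.77% of genes) and 1 was 2-fold higher (2.97%). With both proteins against LOXL2, 10 were 2-fold lower (3.84% of genes) and 1 was 2-fold higher (2.86%). In both pairs, Il33, Cfb, Il1rl1, Ccl9 and Cxcl12 were 2-fold lower (2.74% of genes) and Saa3 was 2-fold higher (2.06%). By measured values, on which the 2.74% is counted, Ccl6 was also 2-fold lower in both pairs. It was below background with BMP2 and has only bounds, at least 1.98-fold lower without LOXL2 and at least 2.26-fold under it. The genes that fell in limma were Il33, Cfb, Il1rl1, Ccl6, Ccl9, Cxcl12, Cxcl14, Ccl8, Ccl5, C3 and Ccl2, and those that rose were Lcn2, Cx3cl1, C4b and Icam1. The serum amyloid gene Saa3 had the widest difference in the other direction and did not pass the test. In bulk RNA, fewer cells of a type and less RNA per cell cannot be told apart.

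**Figure D1:**
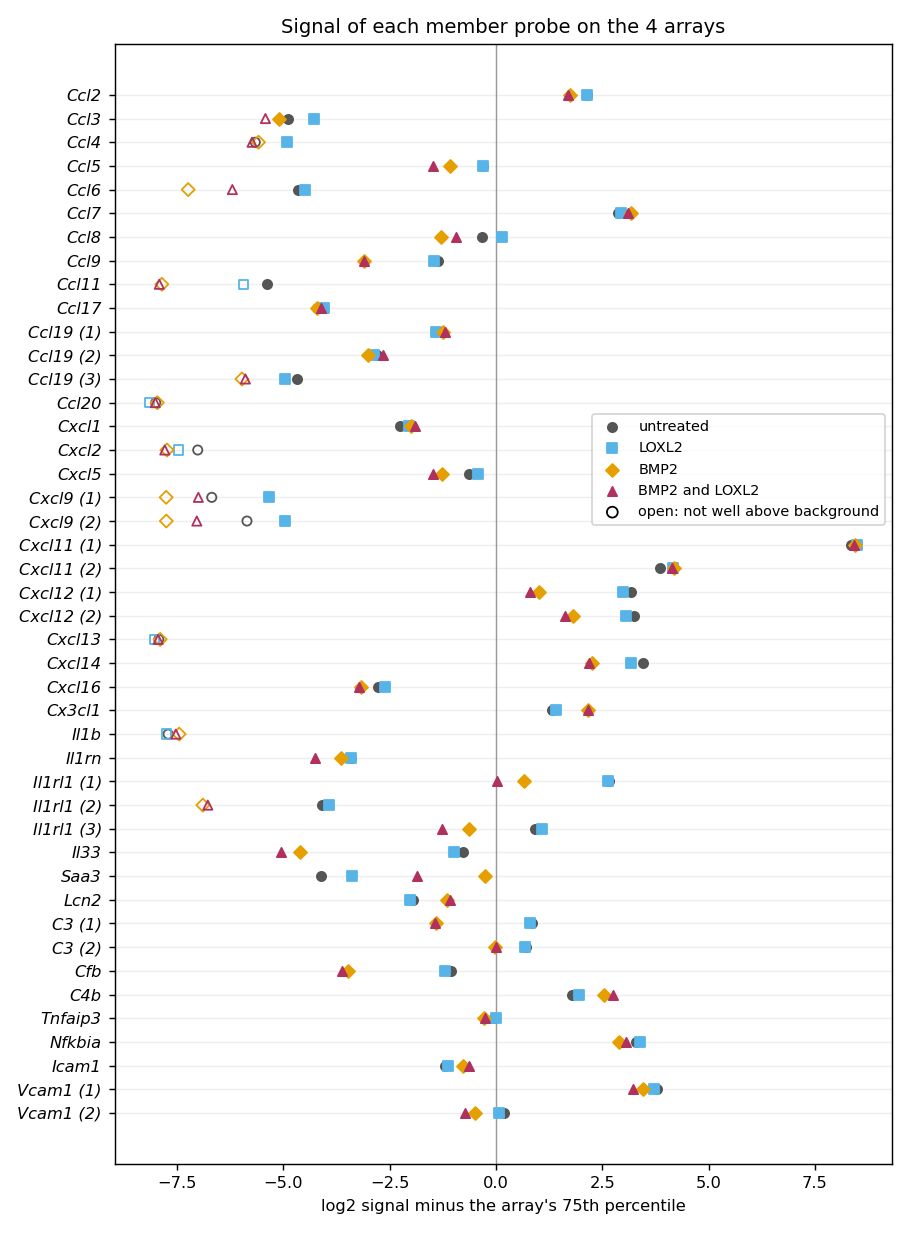
Level of each of the 44 probes (rows, by gene; a number in brackets orders the probes of a gene by position) on the 4 arrays, as log2 signal minus the array's 75th percentile; filled symbols are well above background and open symbols are not. For Il33, Cfb, Il1rl1, Cxcl12 and Ccl9, the 2 arrays with BMP2 lie left of the 2 without it, and for Saa3 they lie right of them.

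Among the interleukin-1 family genes, Il33 had the widest fall. It stood at -0.79 untreated and -0.997 with LOXL2. With BMP2 it stood at -4.61, and with both at -5.06. Its intensity was 412 untreated, 362.7 with LOXL2, 29.7 with BMP2 and 22.3 with both. On each array with BMP2 the lowest intensity called well above background was 14.6, so these values were near the floor. Both arrays with BMP2 were low, both without it were high, and the probe was above background on all 4. It fell by 3.94 ± 0.09 on the log2 scale (± standard error, SE; limma adjusted p = 0.0206), a 15.4-fold change and the 29th largest fall of the 24041 genes. With normexp background correction and an offset of 50, it fell by 2.37. The Il33 probe lies on mouse chromosome 19 from 30035101 to 30035160 (mm9, as are all probe positions here).

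Il1rl1, the receptor gene, was read by 3 probes on chromosome 1. The probe at 40504769 to 40504828, which the file assigns to transcript variant 2, stood at 2.65 untreated, 2.64 with LOXL2, 0.66 with BMP2 and 0.03 with both. This shorter transcript is known to encode a secreted decoy receptor and the longer variant 1 the receptor in the membrane. The signal of the variant 2 probe fell by 2.30 ± 0.20 (limma adjusted p = 0.0287). Of the 2 probes assigned to variant 1, that at 40522187 to 40522246 stood at 0.92, 1.07, -0.63 and -1.28 in the same order. The other, at 40520014 to 40520073, was above background only without BMP2 and was at least 3.13-fold lower with it. All 3 probes were thus lower on both arrays with BMP2. For the variant 2 probe and the probe at 40522187, the array with both proteins was lower than that with BMP2 alone, by 0.63 and 0.64 on the log2 scale, a difference between single arrays with no test.

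Il1rn encodes the antagonist that blocks the interleukin-1 receptor. It stood at -3.42 untreated, -3.42 with LOXL2, -3.65 with BMP2 and -4.25 with both, and its fitted change was -0.53 ± 0.19 (limma adjusted p = 0.155). Il1b, the main secreted interleukin-1, was not well above background on any array, with intensities of 3.3 to 4.1 averaged over 10 spots. The lowest intensity called well above background was 12.9 to 14.6 by array.

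Complement genes of the members moved apart. Cfb encodes factor B, the protease of the alternative pathway. It stood at -1.07 untreated, -1.19 with LOXL2, -3.49 with BMP2 and -3.61 with both, and fell by 2.42 ± 0.05 (limma adjusted p = 0.0206). Its difference was -2.42 in both pairs of arrays. The Cfb probe spans 357 bases of chromosome 17, from 34993502 to 34993858, for a sequence of 60 bases, and so crosses at least 1 intron.

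C3, the component on which all complement pathways meet, had 2 probes that differed in size. The probe at 57343678 to 57343737 of chromosome 17, which represented the gene because its mean was higher, stood at 0.70 untreated, 0.68 with LOXL2, -0.02 with BMP2 and -0.01 with both. C3 fell by 0.71 ± 0.05 on it (limma adjusted p = 0.0263). For this probe the file also lists a second, predicted transcript. The other C3 probe, at 57343416 to 57343475 and printed on 10 spots, stood at 0.85, 0.80, -1.41 and -1.43 in the same order, with an SD over its spots of 0.03 to 0.07 on each array. It fell by 2.25 ± 0.06 (limma adjusted p = 0.0298 over probes). Both probes were lower on both arrays with BMP2, and the size of the C3 fall depended on the probe.

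C4b, of the classical and lectin pathways, stood at 1.78 untreated, 1.94 with LOXL2, 2.53 with BMP2 and 2.76 with both, and rose by 0.78 ± 0.06 (limma adjusted p = 0.0261). The file lists a second transcript for this probe, which RefSeq assigns to C4a, so the signal can come from either gene.

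**Figure D2:**
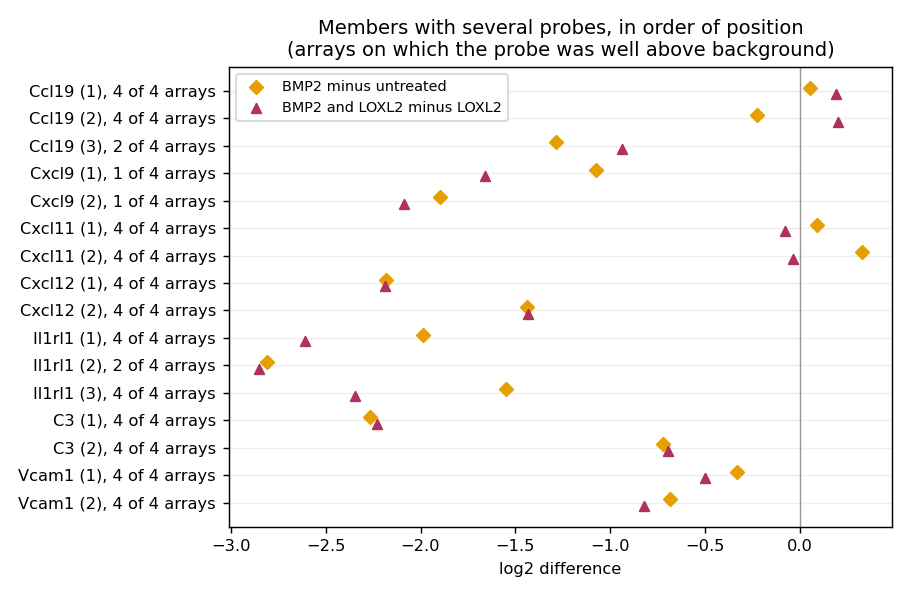
BMP2 differences (x axis, log2) of the members with more than 1 probe, without LOXL2 (diamonds) and under LOXL2 (triangles); rows are probes in order of position, with the number of arrays on which each was well above background. Both C3 probes and both Cxcl12 probes lie left of 0 by unequal amounts, while 2 of the 3 Ccl19 probes lie near 0.

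Of the 12 CC chemokines, 9 passed the filter, 5 fell and 0 rose with BMP2 in limma (6 at an unadjusted p under 0.05 in either direction), or 4 of 8 without Ccl6. Over all genes 9.97% fell and 10.3% rose, for these and for the CXC chemokines below. Ccl9, an osteoblast- and macrophage-derived ligand of CCR1, stood at -1.37 untreated, -1.45 with LOXL2, -3.10 with BMP2 and -3.11 with both. It fell by 1.69 ± 0.06 (limma adjusted p = 0.0206), by nearly the same amount in either pair of arrays. Ccl6, a related CCR1 ligand, was above background on both arrays without BMP2, at -4.65 and -4.49, and on neither with it. It was at least 2.12-fold lower with BMP2, a bound. Its limma adjusted p = 0.0411 is no support, since the filter fixed the direction, and its fitted change with normexp was -0.43.

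Ccl8, a monocyte chemoattractant, stood at -0.33 untreated, 0.14 with LOXL2, -1.30 with BMP2 and -0.94 with both, and fell by 1.02 ± 0.06 (limma adjusted p = 0.0236). Ccl5, also known as RANTES, stood at -0.30, -0.31, -1.09 and -1.49 in the same order and fell by 0.99 ± 0.13 (limma adjusted p = 0.0421). Ccl2, the main ligand of CCR2 on monocytes, was printed on 10 spots and stood at 2.15, 2.15, 1.73 and 1.70. Its fall was small, 0.43 ± 0.05 (limma adjusted p = 0.0395), with both BMP2 arrays below both others. Fitted over single probes rather than genes, Ccl2, Ccl5 and Ccl6 missed the threshold, with adjusted p = 0.053, 0.0533 and 0.0514.

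Other CC chemokines did not pass the test. Ccl7, a neighbour of Ccl2 with overlapping receptors, stood at 2.87 to 3.16 over the 4 arrays with a fitted change of 0.23 (limma adjusted p = 0.111). Ccl3, a macrophage inflammatory protein, was dim, at -4.90 untreated, -4.27 with LOXL2, -5.11 with BMP2 and -5.42 with both, where it was not well above background. Its BMP2 difference was -0.21 without LOXL2 and -1.15 under LOXL2 (limma adjusted p = 0.197 for the fit). With normexp the fitted value was -0.25 and passed. Ccl17 had a fitted change of -0.04, with an adjusted p = 0.654. Ccl19, which draws naive lymphocytes to lymph nodes, had a fitted change of 0.12 (limma adjusted p = 0.266) on its brightest probe, and the third of its probes, above background only without BMP2, was at least 1.78-fold lower with it. The array places all 3 probes on the plus strand of chromosome 4, while the RefSeq promoter window of Ccl19 lies on the minus strand. RefSeq also lists Ccl19 pseudogenes, and which copies give signal on these probes was not tested.

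Ccl4 was well above background on the LOXL2 array alone, Ccl11 (eotaxin) on the untreated array alone, and Ccl20 on none. Ccl4 was at least 1.67-fold higher on the LOXL2 array than on the untreated one. The intensity of Ccl11 was 17.0 untreated, 11.7 with LOXL2, 3.1 with BMP2 and 3.1 with both.

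On chromosome 11, the CC genes lie in 2 groups. In the first, over 79.5 kb from Ccl2 to Ccl8, Ccl7 sits 10.0 kb from Ccl2, and the BMP2 differences of this pair had opposite signs, 0.29 and -0.42 without LOXL2 and 0.16 and -0.45 under it. In the second, over 138.8 kb from Ccl5 to Ccl4, the BMP2 differences without LOXL2 were -0.79 for Ccl5, -1.73 for Ccl9 and -0.21 for Ccl3. Under LOXL2 they were -1.18, -1.66 and -1.15 in the same order, where Ccl3 was not well above background with both proteins. Ccl6, between Ccl9 and Ccl3, has only the bounds given above. The difference of Ccl3 thus depended on the pair read.

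**Figure D3:**
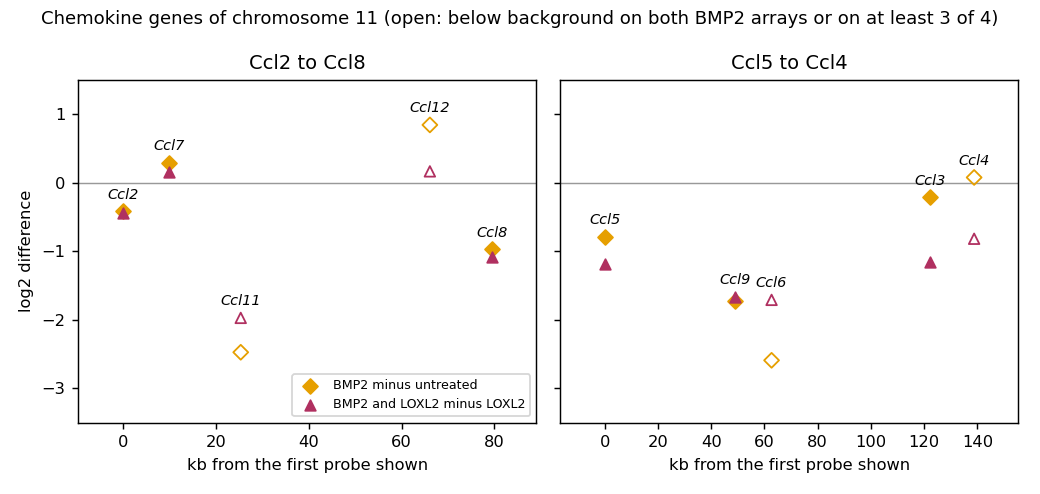
BMP2 differences (y axis, log2) of the chromosome 11 chemokine genes by distance from the first probe shown in each group (x axis, kb), without LOXL2 (diamonds) and under LOXL2 (triangles); open symbols are genes below background on both BMP2 arrays or on at least 3 of the 4, whose differences are not measured on both sides, and Ccl12 is no member. Ccl7 lies above 0 beside Ccl2 below it, and Ccl9 lies lowest among the filled symbols.

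Of the 9 CXC chemokines, 6 passed the filter, and 2 fell and 0 rose with BMP2 in limma (4 at an unadjusted p under 0.05 in either direction). Cxcl12 holds blood stem cells in the marrow through CXCR4. The probe that the file assigns to transcript variant 3, at 117131227 to 117131286 of chromosome 6, stood at 3.25 untreated, 3.05 with LOXL2, 1.82 with BMP2 and 1.62 with both, and fell by 1.43 ± 0.05 (limma adjusted p = 0.0206). The probe assigned to variant 1, at 117125026 to 117125085, stood at 3.182, 2.985, 1.0001 and 0.7961 in the same order and fell by 2.19 ± 0.06 (limma adjusted p = 0.0298 over probes). Both probes were lower by the same amount in either pair of arrays, to within 0.01 on the log2 scale. Cxcl14, a constitutively made chemokine of epithelia and stroma, stood at 3.46 untreated, 3.17 with LOXL2, 2.25 with BMP2 and 2.19 with both, and fell by 1.10 ± 0.09 (limma adjusted p = 0.027).

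The neutrophil-attracting CXC chemokines, which act through CXCR2, did not pass the test. Cxcl5 stood at -0.63 untreated, -0.42 with LOXL2, -1.26 with BMP2 and -1.49 with both, a fitted change of -0.85 ± 0.14 (limma adjusted p = 0.0538). It passed under 4 of the 9 alternative settings. Cxcl1 stood at -2.26 to -1.91 with a fitted change of 0.21 (limma adjusted p = 0.121), and Cxcl2 was not well above background on any array. Of the ligands of CXCR3, Cxcl9 was well above background on the LOXL2 array alone, on both of its probes. These were at least 1.26-fold and 1.66-fold higher there than on the untreated array. Cxcl11 was bright on both of its probes, at unlike levels. The representative probe stood at 8.34 untreated, 8.49 with LOXL2, 8.43 with BMP2 and 8.41 with both. The other Cxcl11 probe stood at 3.85, 4.17, 4.18 and 4.14 in the same order. Which transcripts give signal on these probes was not tested. The fitted change of the representative probe was 0.01 (limma adjusted p = 0.947). The membrane-bound scavenger ligand Cxcl16 had a fitted change of -0.51 (limma adjusted p = 0.0563), and Cxcl13, which organises B cell follicles, was not well above background on any array.

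Cx3cl1, fractalkine, is a chemokine on a membrane stalk and the only member of its class. It stood at 1.31 untreated, 1.40 with LOXL2, 2.17 with BMP2 and 2.15 with both, and rose by 0.81 ± 0.06 (limma adjusted p = 0.0263). Both arrays with BMP2 were higher than both without it. Its receptor gene Cx3cr1, which was not among the members, fell by 0.88 ± 0.10 (limma adjusted p = 0.0385).

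Of the 2 acute phase members, Lcn2 passed the test and Saa3 did not, where 20.3% of all genes passed in either direction. Lcn2, lipocalin-2, binds bacterial iron carriers and is also made by bone. It stood at -1.96 untreated, -2.03 with LOXL2, -1.16 with BMP2 and -1.09 with both, and rose by 0.87 ± 0.07 (limma adjusted p = 0.0267). Saa3, an acute phase apolipoprotein made outside the liver, stood at -4.13 untreated, -3.39 with LOXL2, -0.25 with BMP2 and -1.86 with both, all well above background. Its intensity was 40.6, 69.3, 610.3 and 204.3 in the same order. The BMP2 difference was 3.88 without LOXL2 and 1.52 under LOXL2, and the fitted change of 2.70 ± 0.72 did not pass (limma adjusted p = 0.0988). With normexp the fitted value was 1.76 and passed (adjusted p = 0.0232), and in the other 8 settings it did not pass. The difference between the 2 pairs, -2.36 on the log2 scale, was the 46th largest in size of the 24041 genes and has no test. The LOXL2 differences of Saa3 had opposite signs, each over 1.5-fold, as did those of 0.333% of genes.

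**Figure D4:**
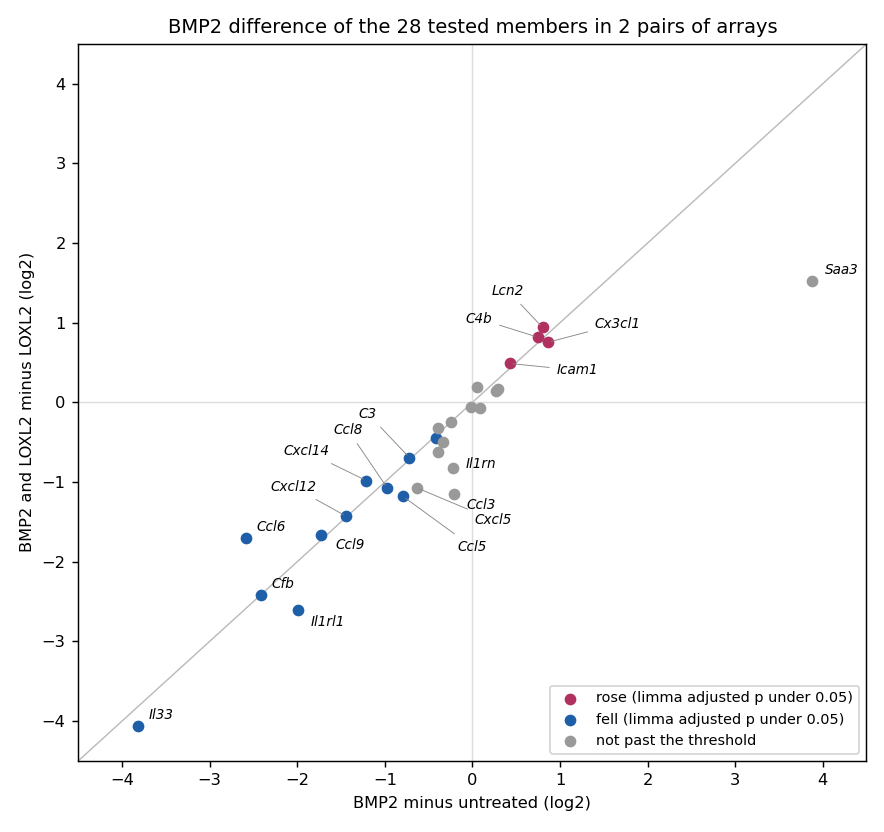
BMP2 difference of the 28 tested members without LOXL2 (x axis) and under LOXL2 (y axis), both in log2; the 2 pairs share no array, colours mark the limma call and the grey line marks equal differences. Of the 28 members 27 had the same sign in both pairs, Cxcl11 near 0 being the other, while 20.6% of all genes had opposite signs; Ccl6 is drawn at values below background with BMP2, and Saa3 at 3.88 and 1.52 lies farthest from the line.

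Of the adhesion and feedback genes, 1 of 4 passed the test, where 20.3% of all genes passed in either direction. Icam1, which binds leukocyte integrins, stood at -1.20 untreated, -1.13 with LOXL2, -0.78 with BMP2 and -0.64 with both, and rose by 0.46 ± 0.06 (limma adjusted p = 0.0396). It missed the threshold over single probes (adjusted p = 0.0528). Vcam1, the ligand of the integrin VLA-4, stood at 3.79, 3.72, 3.46 and 3.22 on its brighter probe, with a fitted change of -0.41 (limma adjusted p = 0.0573). Its second probe had a change of -0.75 (limma adjusted p = 0.0401 over probes). Nfkbia encodes the inhibitor that holds NF-kB in the cytoplasm, and Tnfaip3 the editing enzyme A20 that ends its activation. Both are direct targets of the factor. Nfkbia stood at 3.29, 3.38, 2.90 and 3.06, with a fitted change of -0.36 ± 0.06 (limma adjusted p = 0.0514), and Tnfaip3 at -0.04, -0.01, -0.29 and -0.26, with a change of -0.25 ± 0.05 (limma adjusted p = 0.0723). For both genes, both arrays with BMP2 were below both without it.

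Promoter sequence was read for the 24 members found in the RefSeq table of the GRCm38.p6 assembly, as windows of 300 bases that reach 250 bases before the start site. The other 11 members, with Cfb, Ccl2, Ccl5 and C4b among them, had no window and were not read. The NF-kB motif (the kappa-B consensus, either strand) was found in 6 of the 24 members, Ccl9, Ccl20, Cxcl1, Cxcl2, Nfkbia and Tnfaip3, and in 9.6% of all genes of the table. Among these, Ccl9 fell with BMP2 in limma, Cxcl1, Nfkbia and Tnfaip3 did not pass, and Ccl20 and Cxcl2 were below background. The other members read that fell, C3, Ccl6, Ccl8, Cxcl12, Cxcl14, Il1rl1 and Il33, held no match. Neither did Cx3cl1, Icam1 and Lcn2, which rose, nor Saa3. A match is a description of these letters and not a binding site. Shown 5′ to 3′ are the 250 bases before the start site of 4 members with a match, to compare a member that fell with members that did not pass. Il33, which had the widest fall and whose 2 windows held no match, is shown as well. A further window of Tnfaip3, not shown, also held no match. Capitals mark the motif, which in Cxcl1 is a pair of matches overlapping by all but 1 base.
Ccl9, chr11:83578637-83578886, minus strand: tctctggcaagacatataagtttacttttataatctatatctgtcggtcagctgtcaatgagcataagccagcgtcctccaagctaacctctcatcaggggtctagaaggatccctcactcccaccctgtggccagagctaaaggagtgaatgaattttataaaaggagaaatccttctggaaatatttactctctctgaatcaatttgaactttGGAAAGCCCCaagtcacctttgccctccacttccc
Cxcl1, chr5:90890995-90891244, plus strand: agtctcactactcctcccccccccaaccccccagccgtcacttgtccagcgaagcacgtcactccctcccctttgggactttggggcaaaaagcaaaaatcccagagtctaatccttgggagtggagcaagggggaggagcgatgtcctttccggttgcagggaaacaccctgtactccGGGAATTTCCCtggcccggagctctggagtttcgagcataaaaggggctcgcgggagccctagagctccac
Nfkbia, chr12:55492648-55492897, minus strand: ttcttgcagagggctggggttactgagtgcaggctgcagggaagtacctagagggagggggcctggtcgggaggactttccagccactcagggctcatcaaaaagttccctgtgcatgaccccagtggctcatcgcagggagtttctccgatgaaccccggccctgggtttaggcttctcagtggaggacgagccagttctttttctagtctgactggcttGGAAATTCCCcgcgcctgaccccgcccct
Tnfaip3, chr10:19015411-19015660, minus strand: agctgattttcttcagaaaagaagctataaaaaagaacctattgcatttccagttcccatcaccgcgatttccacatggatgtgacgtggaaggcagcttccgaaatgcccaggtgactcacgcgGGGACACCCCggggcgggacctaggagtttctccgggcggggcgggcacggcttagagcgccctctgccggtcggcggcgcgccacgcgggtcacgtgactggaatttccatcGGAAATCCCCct
Il33, chr19:29924863-29925112, plus strand: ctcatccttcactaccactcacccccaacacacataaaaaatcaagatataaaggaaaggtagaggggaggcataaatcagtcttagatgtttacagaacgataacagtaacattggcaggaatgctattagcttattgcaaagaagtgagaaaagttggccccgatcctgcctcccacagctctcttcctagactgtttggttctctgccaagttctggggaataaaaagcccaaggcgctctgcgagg
Il33, chr19:29945540-29945789, plus strand: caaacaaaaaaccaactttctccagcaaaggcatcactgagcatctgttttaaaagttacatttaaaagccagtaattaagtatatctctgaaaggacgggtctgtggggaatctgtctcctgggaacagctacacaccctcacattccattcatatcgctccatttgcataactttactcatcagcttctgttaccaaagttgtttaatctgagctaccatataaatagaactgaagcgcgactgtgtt
The Ccl9 match began 35 bases before the start site, the Nfkbia match 29, the Cxcl1 pair 71 and 70, and the Tnfaip3 matches 125 and 12.

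No member passed the test for LOXL2. In limma 0 of the 28 tested members and 0 of 24041 genes passed for LOXL2, which is 0%, with 4 members and 1485 genes at an unadjusted p under 0.05 (6.18% of genes). With trend and robust settings in limma, 8 genes rose and 6 fell, none of them a member. The 4 members were Ccl8, with a fitted change of 0.41, Cxcl12 with -0.20, Il33 with -0.33 and C4b with 0.19. Between single arrays, 0 of the 28 differed 2-fold between LOXL2 and no protein, where 0.878% of genes did. Between both proteins and BMP2 alone, Saa3 did, and 1.12% of genes. Ccl6 did by measured values, but was below background on both of those arrays.

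Genes of the same pathways outside the members were read from lists of each pathway. Over all genes tested, 10.3% rose with BMP2 and 9.97% fell, to be set beside the counts of these lists and of the cell markers. As for Ccl6, the genes of these lists given as bounds passed the filter only where they were high. Of 16 other chemokines 7 were tested, with 1 that rose and 3 that fell with BMP2 in limma (2 without Ppbp). Ppbp, the platelet chemokine Cxcl7, was above background only without BMP2 and was at least 5.38-fold lower with it. Pf4, platelet factor 4, fell by 0.94 and Ccl1 by 0.45, and the cytokine Mif rose by 0.69. Of 20 chemokine receptors 10 were tested. Cxcr4, the receptor of Cxcl12, rose by 0.75, while the scavenger Ackr4 fell by 0.95 and Cx3cr1 is given above. Cxcr4 was dim, at -5.15 untreated, -4.94 with LOXL2, -4.56 with BMP2 and -4.04 with both.

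Of 26 upstream cytokines and receptors 23 were tested, and 9 rose and 2 fell with BMP2 in limma (1 without Il1r2). The decoy receptor Il1r2 was at least 2.75-fold lower and Il18 fell by 1.18. The receptor subunits Il17ra and Lifr rose by 1.17 and 1.07. Tnf and Il1a, which encode inducers of many genes of these classes, were below background on all 4 arrays. Of 27 genes of the NF-kB pathway and related regulators 26 were tested, and 5 rose (19.2%) and 2 fell (7.69%), against 10.3% and 9.97% of all genes. The related regulators on this list were Cebpb, Cebpd, Stat3, Socs3 and Zfp36. Nfkbiz rose by 1.11, Cebpb by 0.95, Bcl3 by 0.86, Ikbkg by 0.68 and Traf6 by 0.35. Nfkbiz and Bcl3 encode nuclear IkB proteins that act with NF-kB at promoters, and Cebpb a transcription factor of acute phase genes. The adaptor Traf1 fell by 1.43 and Cebpd by 0.57.

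Of 26 other complement genes 20 were tested, and 9 fell and 0 rose with BMP2 in limma (median -0.41, against 0.02 over all genes). Factor I, Cfi, which cleaves active C3, fell by 1.603. The classical pathway protease C1s1 fell by 1.51, clusterin, Clu, by 1.34 and C1qc by 0.85. On the same arrays, 5 of 14 tested macrophage markers fell and 9 did not pass. Acute phase genes outside the members went both ways, with 15 of 22 tested, 4 that rose and 3 that fell, or 3 and 2 without Orm1 and Steap4. The orosomucoid Orm1 was at least 3.28-fold higher with BMP2, haptoglobin, Hp, rose by 1.55, the pentraxin Ptx3 by 0.94 and Serpina3n by 0.62. The metalloreductase Steap4 was at least 5.83-fold lower, Serpina3g fell by 0.995 and the fibrinogen chain Fga by 0.36.

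Of 19 adhesion genes 17 were tested, and 11.8% rose and 11.8% fell, near the 10.3% and 9.97% of all genes. The integrin chains Itgb7 and Itgal rose by 0.97 and 0.88, and Alcam and Pecam1 fell by 1.01 and 0.40. Of 21 interferon-stimulated genes all were tested, and 3 rose (14.3%) and 2 fell (9.52%) with BMP2 in limma, also near those shares. Usp18 rose by 0.88 and Irf9 by 0.44, while Gbp2 fell by 0.93 and Irf1 by 0.62. The list's median BMP2 difference was 0.52 without LOXL2 and 0.04 under LOXL2.

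**Figure D5:**
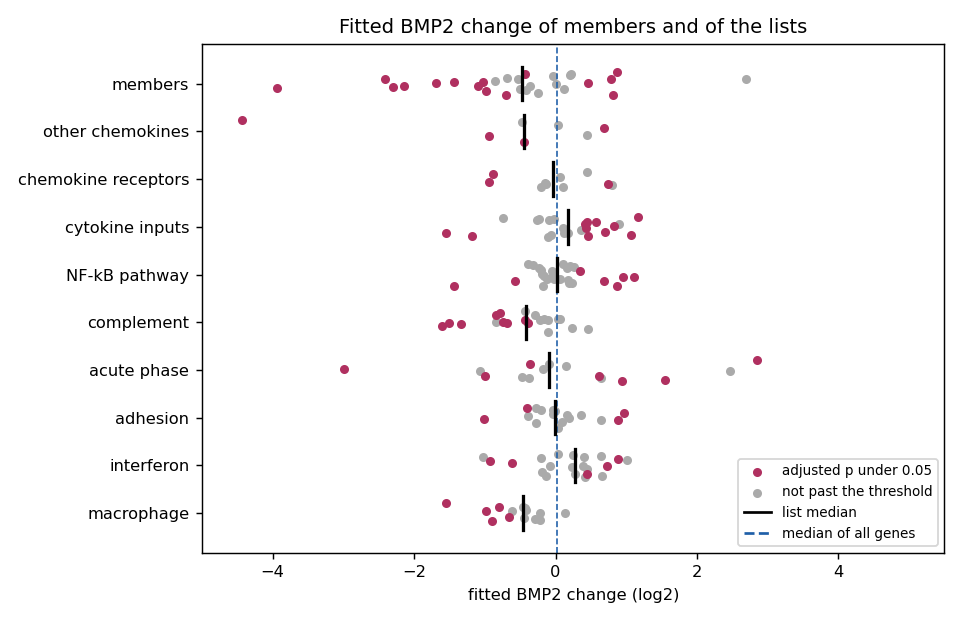
Fitted BMP2 change (x axis, log2) of the tested genes of each list (rows), each point a gene, red where the limma adjusted p was under 0.05; black bars are list medians and the dashed line is the median of all genes. The members, complement and macrophage lists have medians of -0.47, -0.41 and -0.45, and the cytokine input list of 0.17.

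Markers of other cells the cultures could hold were read on the same arrays, since macrophages also make Ccl6, Ccl9, C1qc and other genes named here. Of 18 macrophage markers 14 were tested, and 5 fell, 0 rose and 9, among them Cd68, Csf1r, Ptprc and Mpeg1, did not pass with BMP2 in limma. The median BMP2 difference of the 14 was -0.22 without LOXL2 and -0.80 under LOXL2, against 0.02 over all genes in either pair. Mrc1 fell by 1.55, Aif1 by 0.98, Lyz2 by 0.89, Tyrobp by 0.80 and Laptm5 by 0.66. Their summed level, in units of the array's 75th percentile, was 13.36 untreated, 12.49 with LOXL2, 10.45 with BMP2 and 10.02 with both. Csf1r, which did not pass (-0.22), made up 67.7% to 75.2% of this sum, and the other markers summed to 4.19, 4.04, 2.91 and 2.49. Cd163, Fcgr1, Spi1 and Clec7a were below background on all 4 arrays. The part of macrophages in the falls of the chemokine and complement genes was not tested. Of 10 neutrophil markers 5 were tested, with Camp and Ly6g up by 0.70 and 0.54 and Mpo, which fell by 0.50. Of 13 lymphocyte and mast cell markers 5 were tested, Kit was at least 5.59-fold higher with BMP2, and 0 of the other 4 passed. Of 10 endothelial markers 6 were tested, with Vwf up by 1.89, and Flt1 and Cdh5, which fell by 1.34 and 0.72. Summed levels of these 3 lists were 11.47 to 13.44, 21.41 to 23.02 and 30.11 to 32.66 over the arrays, and 1 gene made up most of each, Elane (at least 77.5%), Cd4 (at least 64%) and Kdr (at least 95.2%).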

How the data were processed

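Mouse primary osteoblasts under 4 treatments were measured on 1 single-colour Agilent array each. The authors' deposited scanner files hold an intensity per spot. The submitters' processing notes name Agilent Feature Extraction 10.7.3.1. The file headers show spatial and multiplicative detrending and surrogate values for the dimmest signals switched on, and the background correction switch off. All 4 arrays share a single scan time, and each treatment has its own array, so array and treatment cannot be told apart. The series' value table, deposited by the authors, also holds intensities. It equalled the mean processed signal within 0.1% for at least 99.52% of probes, so its scale is linear and its values are neither centred nor scaled. Its column medians were 40.54 to 41.49.

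From the log2 of the processed signals of 59305 non-control spots, each array's 75th percentile was subtracted. Spots marked as outliers (109 to 144 per array) were left out, and no spot was saturated. Spots of a probe were averaged. A probe counted as above background on an array where at least 50% of its spots were, and was kept with 2 such arrays. The probe with the highest mean represented a gene, named by RefSeq accession for 26762 probes (assembly GRCm38.p6, names only) and by the file for 28919. No member's name differed between them.

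An additive model of BMP2 and LOXL2 was fitted with limma 3.58.1 under R 4.3.3 with the data.table package (version 1.17.8), two-sided, adjusted over 24041 genes by Benjamini-Hochberg with a threshold of 0.05. It leaves 1 residual degree of freedom, the difference between the BMP2 effect without and under LOXL2, and empirical Bayes added 1.72. Differences between single arrays have no test. A fold is a bound where one side was below background throughout. The dim side was set, per array, to the higher of its own value and the lowest value above background. The BMP2 fit was also run on simulated data over 24041 genes, with the real means and with the real spreads shuffled among genes. Of 50 genes changed by each amount, it called 64% of those lowered by 3 on the log2 scale and 68% of those raised by 3. It called 0% of those changed by 1, and 0 unchanged genes. Far fewer genes changed there than the 10323 at an unadjusted p under 0.05 in limma on the real data. These shares therefore do not carry over to the real calls.

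Members and lists were chosen with earlier results of these data known. Members were described in full where they passed the test or differed 2-fold between single arrays. From the lists, up to 4 of the largest called changes were named, and all in counts of 5 or fewer, except an item that is not reported here. Protein sequences were not used here.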

Additional observations from a re-analysis of the deposited data

Results flagged for a closer look

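The LOXL2 difference of Saa3 ran in opposite directions by the presence of BMP2. It was 0.74 on the log2 scale without BMP2 and -1.61 with BMP2, each larger than 1.5-fold. Of the 24041 genes, 80 (0.333%) met the same condition. Each value rests on 1 array against another, and the difference between them was not tested. No other tested member met the condition for either protein.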

How the results depend on the processing

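The BMP2 direction of the 18 members described in full was kept under all 9 alternatives that could be computed for them (Ccl3 and Ccl6 are absent where a probe must be above background on all 4 arrays). With no filter on dim probes, 0 genes rose and 0 fell with BMP2 in limma, members included, with 9259 genes and 23 members at an unadjusted p under 0.05. The cause was not tested. With each probe fitted by itself, Ccl2, Ccl5, Ccl6 and Icam1 lost their calls. With normexp background correction 4873 genes rose and 4213 fell, and 17 members fell. With trend and robust settings 5854 rose and 4535 fell with BMP2, and 8 rose and 6 fell with LOXL2. With the 1-factor model 3989 rose with BMP2. Over all 28 tested members, normexp added 8 calls (Ccl3, Ccl7, Cxcl5, Cxcl16, Saa3, Tnfaip3, Nfkbia and Vcam1) and trend and robust settings 6 of these (not Ccl3 or Saa3). The filter on all 4 arrays added Cxcl5, Cxcl16, Nfkbia and Vcam1, the 1-factor model Cxcl5, Cxcl16 and Tnfaip3, and quantile normalization Nfkbia. Normexp moved 4 fitted changes by over 1.5 times, to -2.37 for Il33, -0.43 for Ccl6, -0.25 for Ccl3 and 1.76 for Saa3. Median centring moved the share of calls that rose from 50.9% to 60.7%. LOXL2 changes near 0 turned sign with normexp for Ccl3 (-0.009976), Cxcl5 (0.0007965) and Lcn2 (-0.01217), and with median centring for C3 (0.003566). Median centring and the authors' value table changed no call of the 28 members. No paired analysis was possible because each treatment has 1 array, and leaving out an array could not be fitted because the model would have no residual degree of freedom. Signal over background limits 7 members: Il1b, Ccl20, Cxcl2 and Cxcl13 had only an upper bound on every array, and Ccl4, Ccl11 and Cxcl9 were measured on 1 array each.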
